A study of Mus musculus with 20 samples.

Results

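The natriuretic peptide system of the heart was followed through 10 genes, chosen by symbol from the 25308 genes of a table of read counts from mouse heart apex. They comprise the ligand genes Nppa, Nppb and Nppc, the receptor genes Npr1, Npr2 and Npr3, the protease genes Corin and Furin, which cleave the precursors, and Pcsk6, whose product acts on corin, and Mme, which encodes the degrading enzyme neprilysin. Each symbol matched 1 row. Of the 10 genes, 9 had enough reads to be tested, and Nppc did not.

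Atrial natriuretic peptide (ANP, from Nppa) and brain natriuretic peptide (BNP, from Nppb) are hormones made by cardiomyocytes as precursors, released when the heart wall is stretched, and used in the clinic as markers of cardiac strain. Both act on the guanylyl cyclase receptor encoded by Npr1, which makes the second messenger cGMP and thereby lowers blood pressure, promotes loss of salt and water and restrains growth of the heart. In the adult heart Nppa is expressed mainly in the atria, and its return in ventricles is a classical sign of load or hypertrophy.

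RNA was sequenced from the apex of 20 hearts, in 3 groups. Every mouse carried the DH-LMP2A background, in which B cells make no Ig heavy chain and plasma cells secrete free light chains. The Ctrl group held 7 age-matched DH mice. LS mice (n = 4) and AL mice (n = 9) had the genotype DH-lambdaS (λS-DH), in which the cDNA of a human λ light chain from a patient with AL amyloidosis, driven by a mouse VH promoter, replaced the Jκ segments of the Ig kappa locus. LS mice were not induced and had no amyloid deposits. AL mice had cardiac deposits after induction with the recombinant variable domain (VL) of the same light chain, given intravenously as sonicated fibrils or as soluble protein. Which of these a given AL mouse received, and the sex and age of each mouse, are not given in the sources used here. The light chain comes from plasma cells, so its production is not targeted to the heart. It derives from 1 patient.

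Some features of the libraries touch the results. Sequencing was done in 2 runs, whose mice the paper does not list, and AL8, AL9, Ctrl5, Ctrl6 and Ctrl7 were taken as the second. They had totals of 7867642 to 11794615 counts per mouse against 43993277 to 62668146 in the first. All 4 LS mice were in the first run. Comparisons rest on edgeR's quasi-likelihood test, in a model that holds the run, and FDR stands for the Benjamini-Hochberg adjusted p over 14477 tested genes. Values per mouse are CPM, counts scaled to a common library size with TMM factors. A call needed an FDR under 0.05 together with a log2 fold change (log2FC) of 0.58 or more in size, and of 1 or more where LS and Ctrl mice were merged as controls. Where nothing else is said, log2FC and FDR come from this test.

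Nppa and Nppb are neighbors, and the stretches before their starts hold motifs of cardiac transcription factors. On GRCm38 the protein-coding gene Nppb (ENSMUSG00000029019) lies at chr4:147985788-147987205 and Nppa (ENSMUSG00000041616) at chr4:148000722-148002079, both on the plus strand. Nppa starts 13517 bases after the last base of Nppb, with 0 genes of the table between them. The 250 bases before each RefSeq start (GRCm38.p6) were searched on both strands for GATAA (bound by GATA factors), AAGTG (NKX2-5), CATTCC (TEAD factors, the MCAT element) and GGTGTG (TBX5). The window of Nppa is shown whole because it holds 2 GATA and 2 NKX2-5 motifs. For Nppb a 30-base stretch is shown that holds its 2 GATA motifs and its MCAT motif (GGAATG on this strand), since GENCODE starts Nppb 112 bases before the RefSeq start and counts this stretch as exon. Capitals mark these motifs.
Nppa, chr4:148000472-148000721, plus strand: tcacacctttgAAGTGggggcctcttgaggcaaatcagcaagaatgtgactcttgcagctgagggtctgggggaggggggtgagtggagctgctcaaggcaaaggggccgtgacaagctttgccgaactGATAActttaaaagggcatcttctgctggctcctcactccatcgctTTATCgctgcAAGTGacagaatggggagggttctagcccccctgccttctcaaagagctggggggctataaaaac
Nppb, chr4:147985794-147985823, plus strand: aGGAATGcagctGATAAatcagaGATAAcc
The 2 GATA motifs of Nppa begin 121 and 75 bases before its start, and those of Nppb 94 and 83 bases. Each window also holds 1 TBX5 motif, and that of Nppa overlaps none of the others. Of 32851 windows of this length in the mouse genome, 22.58% hold a GATA motif, 40.71% an NKX2-5 motif, 12.64% an MCAT motif and 16.28% a TBX5 motif, and 4.28% hold at least 2 GATA motifs. Windows of the other 8 genes hold 0 GATA motifs. These matches describe letters only, not binding.

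Nppa had the largest log2FC of the system between AL and Ctrl mice, and LS mice lay between. In AL1 to AL9 it stood at 447, 324, 838, 339, 667, 252, 705, 137 and 959 CPM, with a mean of 519 ± 284 (SD, n = 9). In LS1 to LS4 it stood at 210, 272, 394 and 87.0 CPM (241 ± 128, n = 4). Ctrl mice ranged from 3.88 CPM in Ctrl6 through a median of 75.0 to 137 in Ctrl4 (77.7 ± 46.9, n = 7). All 9 AL mice lay above all 7 Ctrl mice, although AL8 (136.9 CPM) cleared Ctrl4 (136.6 CPM) by less than 1 CPM. Such a full separation was seen for 0.484% of the tested genes. Between AL and LS mice the ranges overlapped, with 5 of 9 AL mice above all 4 LS mice, and 3 of 4 LS mice lay above all Ctrl mice.

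Nppa rose in AL against Ctrl mice by a log2FC of 2.72 (SE 0.536, FDR = 0.00153), a 6.58-fold difference with a 95% interval of 3.03 to 14.3. The log2FC stayed between 2.29 and 2.93 as each mouse was left out in turn, lowest without AL9, and was 2.55 without Ctrl6. Against merged controls it was 1.99 (SE 0.496, FDR = 0.00441), and with the replicate number as a block 1.52 (FDR = 0.0540). Replicate numbers did not pair the mice, and AL8 and AL9 share theirs with no other mouse. In every result with this block, these 2 mice therefore add nothing to the difference between groups. Over the 28 other settings against merged controls the FDR ranged from 0.000598 to 0.0540. Between AL and LS mice the log2FC was 1.14 with a 95% interval of -0.16 to 2.44 and an FDR of 0.191, so that the difference did not pass the test. Between LS and Ctrl mice it was 1.58 with an interval of 0.27 to 2.89 (unadjusted p = 0.0206, FDR = 0.794), and this did not pass the test either.

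Nppb showed a different arrangement of the groups. AL1 to AL9 had 364, 67.0, 172, 116, 173, 244, 405, 135 and 233 CPM (212 ± 112, n = 9). LS1 to LS4 had 163, 232, 241 and 141 CPM (194 ± 49.9, n = 4), and Ctrl mice ranged from 25.998 in Ctrl2 through a median of 93.9 to 140 in Ctrl1 (82.5 ± 41.5, n = 7). All 4 LS mice lay above all 7 Ctrl mice, LS4 by little more than 1 CPM, a separation that 1.87% of the tested genes showed. Of the AL mice 6 lay above all Ctrl mice, while 3 lay above and 3 lay under all LS mice.

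The rise of Nppb in AL against Ctrl mice had a log2FC of 1.30 (SE 0.370, FDR = 0.0151), or 2.46-fold with a 95% interval of 1.44 to 4.21. In the first run alone it was 1.23 (FDR = 0.0686) and with the replicate block 0.86 (FDR = 0.216), and neither passed the test. Over the 29 other settings the FDR ranged from 0.00425 to 0.216. Against merged controls Nppb had a log2FC of 0.82 and an FDR of 0.0729, which ranged from 0.0323 to 0.882 over the 28 other settings. LS against Ctrl mice gave 1.10 with a 95% interval of 0.14 to 2.05 (unadjusted p = 0.0272, FDR = 0.808), and AL against LS mice gave 0.20 with an interval of -0.70 to 1.10 (FDR = 0.771).

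**Figure D1:**
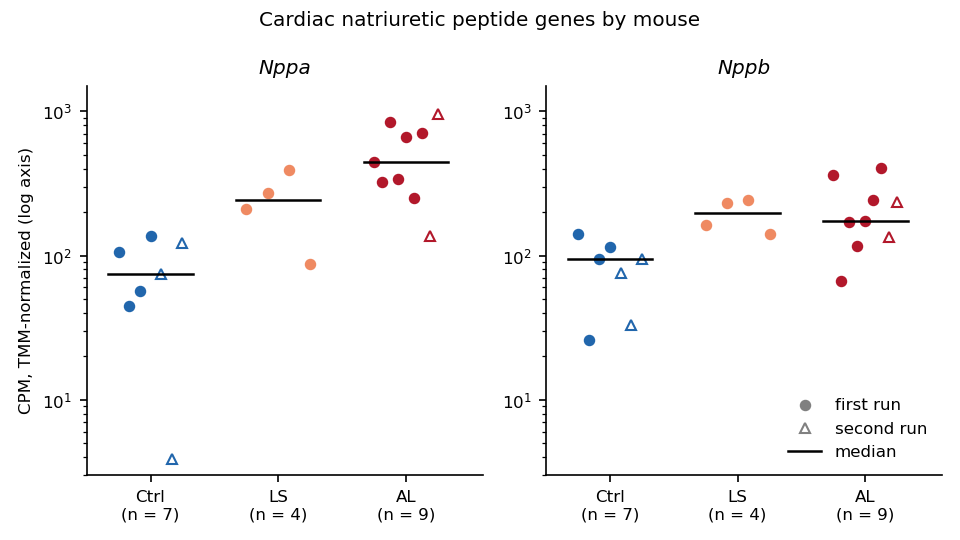
CPM of Nppa and Nppb in each of the 20 mice (log axis), with filled circles for the first sequencing run, open triangles for the second and a line at the group median. All 9 AL mice lie above the 7 Ctrl mice for Nppa, from 137 CPM up, while for Nppb the AL mice (67.0 to 405 CPM) spread over the range of the 4 LS mice.

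Nppc encodes C-type natriuretic peptide, which endothelium and cartilage release and which acts on the receptor of Npr2. It had 28 counts over all 20 mice, with a maximum of 4 in a Ctrl mouse and 0 in 6 mice. Only 1 mouse exceeded a floor of 3 counts, so no difference in Nppc (ENSMUSG00000026241, chr1:86666291-86670571) was detectable at this depth.

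Levels of different genes were set side by side only per kb of exon length. In Ctrl mice the highest levels were those of Nppb (106 ± 53.1 CPM per kb, SD, n = 7) and Nppa (89.8 ± 54.2), whose order was not clear, with Nppb above Nppa in 4 of 7 mice. Corin followed at 42.6 ± 7.48 CPM per kb, with Nppa above it in 5 of 7 mice. Then came Pcsk6 (13.6 ± 3.22), Npr2 (9.20 ± 1.57), Furin (7.87 ± 0.637), Npr1 (3.08 ± 0.948), Npr3 (2.03 ± 0.472) and Mme (1.34 ± 0.0565). Npr2 exceeded Furin in 5 of 7 mice and Npr3 exceeded Mme in 6 of 7. All other neighbors in this order kept their places in all 7 Ctrl mice.

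Ranked by CPM per kb among 24657 genes with a known length, Nppa had a median rank of 273 in Ctrl mice, 121.5 in LS mice and 66 in AL mice, where its best rank was 22 and its worst 164. Nppb had median ranks of 246, 139 and 140 in the same order. The level of Nppa per kb divided by that of Nppb had a median of 0.899 in Ctrl mice (0.106 to 1.54), 1.11 in LS mice (0.556 to 1.47) and 2.64 in AL mice (0.918 to 4.41). Nppa exceeded Nppb per kb in 7 of 9 AL, 3 of 4 LS and 3 of 7 Ctrl mice, and the ratio was not tested.

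**Figure D2:**
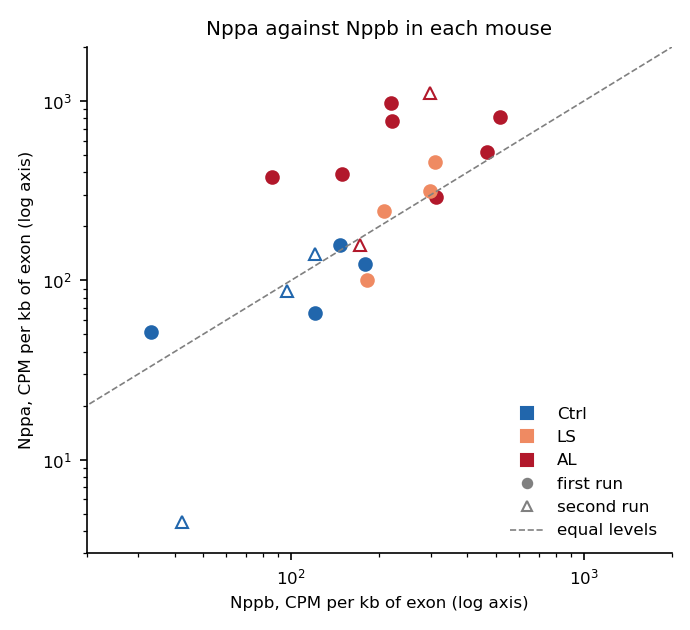
Nppa against Nppb in each mouse, both in CPM per kb of exon on log axes, with groups by color, the second run as open triangles and a dashed line where both levels are equal. Ctrl and LS mice lie along the line except Ctrl6, the lowest point, and 7 of 9 AL mice lie above it.

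From mouse to mouse, the correlation of both genes was higher in the pooled mice without deposits than in AL mice, but this difference was not tested. In the 11 LS and Ctrl mice, Pearson's r of log2 CPM was 0.83 (permutation p = 0.00075, adjusted p = 0.00347 over 5 relations) and Spearman's rho 0.90 (permutation p = 0.00038, adjusted p = 0.0019), and r was 0.82 without LS3 and Ctrl6. These mice hold both groups, pooled without a group term. The groups lie apart for Nppb, and 3 of 4 LS mice lay above all Ctrl mice for Nppa, so r also holds the difference between groups. In the first run alone r was 0.84 and rho 0.90 over 8 mice (exact permutation p = 0.00139 and 0.00456, adjusted 0.00347 and 0.0114), and r was 0.86 without LS3 and Ctrl2. In the 7 Ctrl mice, a group taken up after the data were seen, r was 0.72 and rho 0.82 (exact permutation p = 0.0508 and 0.0341, adjusted 0.0847 and 0.0569), and r was 0.77 without Ctrl4 and Ctrl6. In the 9 AL mice r was 0.39 and rho 0.37 (exact permutation p = 0.298 and 0.336, adjusted 0.372 and 0.42), and r was 0.33 without AL8 and AL9. In the 7 AL mice of the first run r was 0.33 and rho 0.29 (exact permutation p = 0.453 and 0.556, adjusted 0.453 and 0.556), and r was 0.71 without AL3 and AL6.

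The dissections were checked with markers of other parts of the heart, since atrial tissue would carry Nppa with it. Of 13 atrial markers, Sln had a median of 0, Bmp10 had a median under 0.1 CPM, and Myl7 reached at most 1.89 CPM in AL, 0.347 in LS and 1.31 in Ctrl mice. The summed atrial markers ranged from 108 to 149 CPM in AL, 128 to 148 in LS and 104 to 143 in Ctrl mice, and these sums rest mostly on Kcnj3, at a mean of 58.8 CPM in AL, 84.6 in LS and 68.3 in Ctrl mice. Single markers at low levels were higher in AL mice, as Nppa was. In AL against Ctrl mice 3 of 10 tested were called higher, where 4.1% of all tested genes were: Myl7 (log2FC 1.97, FDR = 0.00961), Dkk3 (1.5, FDR = 0.00766) and Myl4 (0.98, FDR = 0.0165). In AL against LS mice Dkk3 (1.76, FDR = 0.0132) and Myl4 (0.96, FDR = 0.0422) were called, where 8.9% of all were. Myl7 and Myl4, the atrial myosin light chains, had means of 0.925 and 2.80 CPM in AL, 0.288 and 1.56 in LS and 0.383 and 1.31 in Ctrl mice. Against merged controls 6 of 10 had an FDR under 0.05 (36.2% of all), 5 of them upward, and Myl7 (1.67) and Dkk3 (1.59) were called (4.88% of all). The part of atrial tissue in the Nppa result was not tested. The summed markers of ventricular cardiomyocytes ranged from 49742 to 76600 CPM in AL, 64437 to 71942 in LS and 62447 to 76954 in Ctrl mice. Their medians were 57683, 68720 and 68397 CPM, and all AL mice except AL8 (76600) lay under all LS and Ctrl mice. Myh6 had the highest level of these markers, at a mean of 23364 CPM in AL, 27351 in LS and 32317 in Ctrl mice. In Ctrl mice the sums ranged from 62447 to 68397 CPM in the first run and from 72537 to 76954 in the second. The median log2FC of the 10 markers was -0.04 in AL against Ctrl mice. Of these 10 markers, Myh6 (log2FC -0.33) and Pln (-0.44) had an FDR under 0.05 in that comparison (26.2% of all), and 0 were called (7.81% of all). Both also passed the FDR downward in AL against LS mice (23.4% of all). The part of this difference in the peptide results was not tested.

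Other lists moved more. Of 6 mesothelial and epicardial markers, 5 were called higher in AL against merged controls, where 4.88% of all tested genes were called, with sums of 17.4 to 262 CPM in AL, 7.49 to 25.8 in LS and 14.3 to 36.9 in Ctrl mice. Of 14 liver markers, 12 were called lower in that comparison. Their sums ranged from 28.9 to 114 CPM in AL, 56.9 to 304 in LS and 36.1 to 438 in Ctrl mice. Among Ctrl mice they were 112 to 438 CPM in the first run and 36.1 to 44.1 in the second, within the range of AL mice. AL9 had the highest macrophage (706 CPM), neutrophil (41.6), conduction system (61.0) and mesothelial (262) sums of all 20 mice, and AL8 the lowest fibroblast (666), mural cell (716) and macrophage (187) sums. Their part in the results was not tested. In tissue RNA, fewer cells of a type and less RNA per cell cannot be told apart.

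The 9 tested genes were counted in each of 4 comparisons. In AL against Ctrl mice 3 of 9 were called (Nppa and Nppb higher, Pcsk6 lower), where 7.81% of all tested genes were called, with 4.1% higher and 3.71% lower, and 5 of 9 had an FDR under 0.05, where 26.2% of all did. In AL against LS mice 0 of 9 were called, where 8.9% of all were. Npr1 and Mme had an FDR under 0.05 (23.4% of all), 4 of 9 had an unadjusted p under 0.05 (36.8% of all), and DESeq2 also called 0. In LS against Ctrl mice 0 of 9 were called by edgeR's quasi-likelihood test or by DESeq2, where edgeR called 0.0207% of all, and 2 of 9 had an unadjusted p under 0.05 (Nppa and Nppb, 5.94% of all). Against merged controls Nppa alone was called (4.88% of all), and Npr1, Pcsk6 and Mme also had an FDR under 0.05 (36.2% of all). These comparisons share mice and are not independent.

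**Figure D3:**
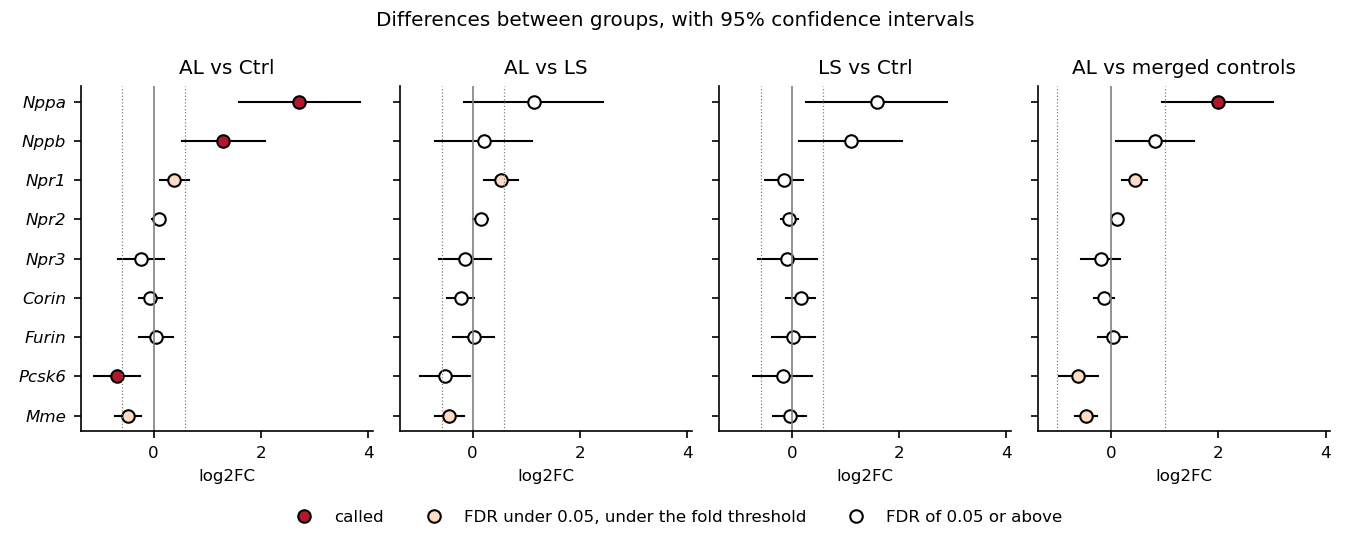
Log2FC of the 9 tested genes in the 4 comparisons, as points with 95% confidence intervals, and dotted lines at the log2FC threshold of the call (0.58, or 1 for merged controls). Filled red points were called, pale points had an FDR under 0.05 with a smaller log2FC, and Nppa in AL against Ctrl mice lies farthest from 0 at 2.72.

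The receptor genes had a smaller log2FC than both ligand genes in AL against Ctrl mice. Npr1 (ENSMUSG00000027931, chr3:90450591-90465866) encodes the guanylyl cyclase that both cardiac peptides activate. It ranged from 12.5 through a median of 16.3 to 23.4 CPM in AL mice, stood at 12.2, 10.1, 9.01 and 12.6 CPM in LS1 to LS4, and ranged from 9.79 through 12.9 to 21.5 CPM in Ctrl mice. The Ctrl values fell apart by run, with 9.79 to 12.9 CPM in the first and 17.03 to 21.5 CPM in the second. Of the AL mice 8 of 9 lay above all LS mice, and 6 of 7 in the first run above all Ctrl mice of that run.

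Npr1 had a log2FC of 0.38 (SE 0.130, FDR = 0.0360) in AL against Ctrl mice, 0.53 (SE 0.151, FDR = 0.0171) against LS mice and 0.44 (SE 0.110, FDR = 0.00432) against merged controls. Each was under the threshold of size. Against Ctrl mice the FDR ranged from 0.0129 to 0.361 over the 29 other settings, and it was over 0.05 without AL5 and without any 1 of Ctrl1 to Ctrl5 (up to 0.0958, without Ctrl1). Against merged controls it ranged from 0.000413 to 0.0893. Against LS mice Npr1 passed that threshold in 5 of 29 other settings, among them the first run alone (0.59, FDR = 0.00756) and without LS4 (0.60, FDR = 0.0232), and the FDR ranged from 0.00333 to 0.196 over these settings. Between LS and Ctrl mice no difference passed the test, with a log2FC of -0.15 and a 95% interval of -0.49 to 0.20 (FDR = 0.948).

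Npr2 (ENSMUSG00000028469, chr4:43631935-43651244), the guanylyl cyclase for the peptide of Nppc, passed the FDR in no comparison with all mice and the run in the model. It ranged from 35.7 through 40.5 to 61.9 CPM in AL mice, from 33.5 to 37.3 in LS mice and from 36.1 through 38.6 to 53.9 in Ctrl mice, and AL8 stood apart at the top. In the second run Ctrl mice had 46.5 to 53.9 CPM, against 36.1 to 38.6 in the first. The log2FC was 0.10 in AL against Ctrl mice (95% interval -0.02 to 0.22, FDR = 0.231) and 0.12 against merged controls (FDR = 0.0759). Over the 28 other settings against merged controls the FDR ranged from 0.0192 to 0.567, so that some passed it.

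Npr3 (ENSMUSG00000022206, chr15:11839896-11907287) encodes the clearance receptor, which lacks the cyclase and removes the peptides from the circulation. It ranged from 9.41 through 15.4 to 24.8 CPM in AL mice, from 11.8 to 21.1 in LS mice and from 12.6 through 19.0 to 27.4 in Ctrl mice, so that all groups overlapped. Its log2FC in AL against Ctrl mice was -0.23 (95% interval -0.66 to 0.20, FDR = 0.439) and turned to 0.04 in the first run alone. Per kb, Npr3 stood at a median of 0.483 times the level of Npr1 in AL mice (0.293 to 0.754), 0.795 times in LS mice (0.665 to 1.04) and 0.649 times in Ctrl mice (0.514 to 0.865). This ratio was not tested.

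Corin, the transmembrane serine protease that cleaves proANP at the cardiomyocyte surface, was well expressed in all mice. Corin (ENSMUSG00000005220, chr5:72300025-72504473) ranged from 166 in AL1 through 228 to 295 CPM in AL mice, stood at 263, 288, 312 and 258 CPM in LS1 to LS4 and ranged from 177 through 231 to 298 CPM in Ctrl mice. AL and Ctrl mice overlapped, with a log2FC of -0.06 (95% interval -0.27 to 0.15, FDR = 0.700). Of the AL mice 7 of 9 lay under all LS mice, but the log2FC of -0.23 (interval -0.47 to 0.02, FDR = 0.176) did not pass the test.

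Furin (ENSMUSG00000030530, chr7:80388585-80405436) encodes the Golgi convertase that cleaves many precursors, proBNP among them. AL9 stood alone at 145 CPM, and the other 8 AL mice had 48.04 to 75.6 CPM, while LS mice had 59.5 to 77.2 and Ctrl mice 65.7 to 80.0 CPM. The log2FC in AL against Ctrl mice was 0.05 (95% interval -0.26 to 0.36, FDR = 0.852) and -0.14 without AL9. Its sign in AL against Ctrl mice also turned with ComBat-seq, in the first run alone and without Ctrl6 (-0.01). With the replicate block, to which AL9 adds nothing, it was -0.36 (FDR = 0.0350), and against merged controls -0.29 (FDR = 0.0350). Furin then passed the FDR downward, short of the threshold of size. Over the 29 other settings of AL against Ctrl mice the FDR ranged from 0.0350 to 0.986.

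Pcsk6 (ENSMUSG00000030513, chr7:65861734-66050386), which encodes the convertase PACE4, known to activate corin, was the 1 gene of the system called lower. AL1 to AL9 had 76.4, 82.3, 51.5, 55.03, 53.1, 67.1, 40.4, 21.6 and 21.3 CPM. LS1 to LS4 had 70.9, 91.9, 70.2 and 84.7 CPM, and Ctrl mice ranged from 57.3 through 64.3 to 106 CPM. Both second-run mice, AL8 and AL9, were the lowest of all 20, and 6 of 9 AL mice lay under all Ctrl mice and 7 of 9 under all LS mice.

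Pcsk6 fell by 0.68 on the log2 scale in AL against Ctrl mice (SE 0.206, FDR = 0.0212). The call was lost without AL8 (-0.54, FDR = 0.0565), without AL9 (-0.52, FDR = 0.0681) and without Ctrl3 (-0.61, FDR = 0.0667). It was also lost with ComBat-seq (-0.58, FDR = 0.126), without the run term (-0.44, FDR = 0.219), in the first run alone (-0.30, FDR = 0.269) and with the replicate block (-0.18, FDR = 0.610). The sign was negative in all 29 other settings, over which the FDR ranged from 0.00309 to 0.610. Against LS mice Pcsk6 had a log2FC of -0.51 (FDR = 0.104) and against merged controls -0.61 (SE 0.173, FDR = 0.0100), which is under the threshold of 1, and over the 28 other settings of that comparison the FDR ranged from 0.000343 to 0.382.

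Mme encodes neprilysin, a membrane metallopeptidase that degrades ANP and is the target of the heart failure drug sacubitril. Mme (ENSMUSG00000027820, chr3:63241537-63386030) had 10.9, 14.5, 9.95, 14.1, 10.6, 13.2, 12.1, 10.2 and 7.14 CPM in AL1 to AL9 and 16.7, 13.7, 13.7 and 19.5 CPM in LS1 to LS4. Ctrl mice lay close together, from 14.1 through 15.7 to 16.1 CPM (15.5 ± 0.652, n = 7). All AL mice except AL2 lay under all Ctrl mice, and 7 of 9 lay under all LS mice. Mme had a log2FC of -0.48 (SE 0.115, FDR = 0.00549) in AL against Ctrl mice, -0.44 (SE 0.129, FDR = 0.0210) against LS mice and -0.46 (SE 0.0972, FDR = 0.00126) against merged controls. It passed the FDR in each but not the threshold of size. Over the other settings the FDR ranged from 0.000999 to 0.222 against Ctrl mice, from 0.0100 to 0.216 against LS mice and from 7.70e-05 to 0.0306 against merged controls, highest against Ctrl and LS mice with ComBat-seq, and against LS mice the pass was also lost without LS1 (FDR = 0.0566) and without LS4 (FDR = 0.108). Its level was 0.726 times that of merged controls (95% interval 0.631 to 0.836). Between LS and Ctrl mice the log2FC was -0.04 with an interval of -0.35 to 0.26 (FDR = 0.992).

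**Figure D4:**
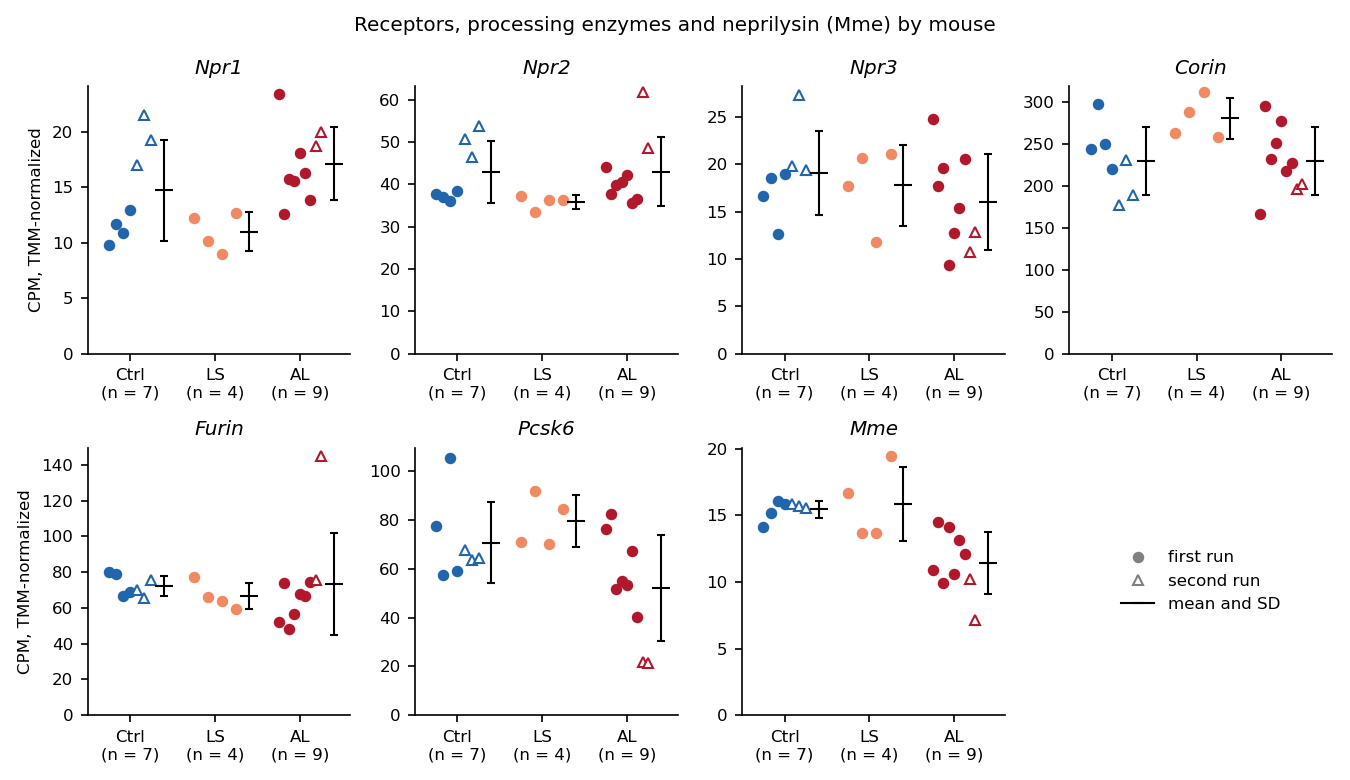
CPM of the 3 receptor genes, Corin, Furin, Pcsk6 and Mme in each mouse (linear axes from 0), with the first run as filled circles, the second as open triangles and mean ± SD beside each group. AL9 stands apart for Furin (145 CPM), AL8 and AL9 lie lowest for Pcsk6 (21.6 and 21.3 CPM), and 8 of 9 AL mice lie under all Ctrl mice for Mme.

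Within each sequencing run, Nppa was higher in AL mice and passed the test. In 1 fit with separate groups per run, Nppa had a log2FC of 2.57 (SE 0.690, FDR = 0.0164) in the first run (7 AL and 4 Ctrl mice) and 3.03 (SE 0.911, FDR = 0.0361) in the second (2 AL and 3 Ctrl mice), and the difference between the runs was 0.46 with a 95% interval of -1.80 to 2.73. Nppb had 1.23 (FDR = 0.0753) and 1.45 (FDR = 0.143), so that it passed in neither run alone. In each run all AL mice lay above all Ctrl mice for Nppa. That was so for 5.68% of the tested genes in the first run and for 14% in the second.

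Other genes passed the FDR in 1 run and not in the other. In the first run 2 of 9 genes had an FDR under 0.05 (18% of all), Nppa and Npr1, the latter with a log2FC of 0.54 (FDR = 0.0145) against 0.01 (FDR = 0.994) in the second. In the second run 3 of 9 passed (13.5% of all), Nppa, Pcsk6 and Mme. Pcsk6 had a log2FC of -1.60 (FDR = 0.00453) there and -0.30 (FDR = 0.251) in the first run, and Mme -0.87 (FDR = 0.0107) and -0.33 (FDR = 0.0634). Furin had 0.65 (FDR = 0.0536) in the second run and -0.23 in the first, and Npr3 -0.90 (FDR = 0.0872) and 0.04. Both second-run AL mice lay under all Ctrl mice of that run for Npr3, Pcsk6 and Mme, as for 18% of the tested genes. They lay above all of them for Nppb and Furin as well as Nppa, as for 14% of the tested genes. Tested as an interaction, the difference between the runs passed the FDR for 0 of 9 genes (1.49% of all). It came to -1.30 for Pcsk6 (unadjusted p = 0.0010, FDR = 0.0566) and 0.88 for Furin (unadjusted p = 0.00341, FDR = 0.0971).

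**Figure D5:**
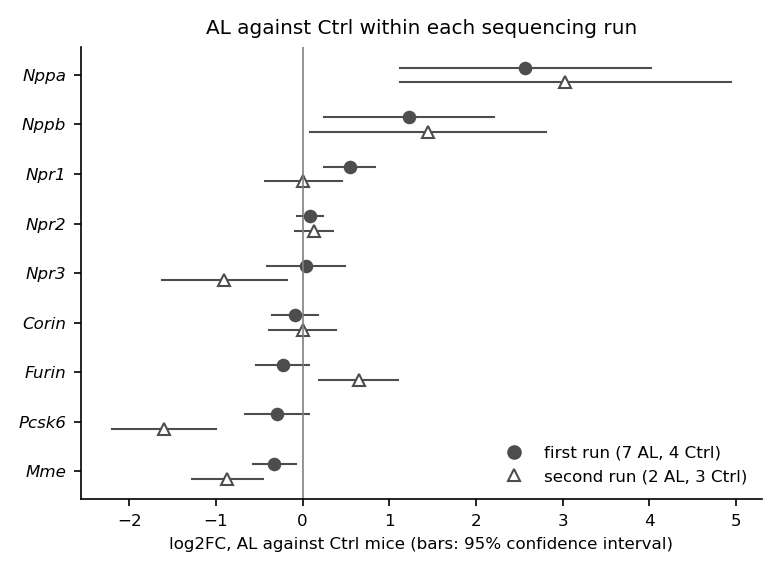
Log2FC of the 9 tested genes in AL against Ctrl mice within the first run (filled circles) and the second run (open triangles), with 95% confidence intervals. Nppa and Nppb lie to the right of 0 in both runs (Nppa 2.57 and 3.03), while Pcsk6 lies at -0.30 in the first and -1.60 in the second.

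Genes that act after the receptors were taken from a list of cGMP signalling. Of 27 genes 23 were tested against merged controls, where 3 rose and 7 fell at an FDR under 0.05 (36.2% of all tested genes passed) and the median log2FC was -0.05, against 0.01 over all tested genes. Only Gucy1a2 was called (log2FC -1.17, SE 0.189, FDR = 0.000141), where 4.88% of all tested genes were. Its level was low, at a mean of 0.615 CPM in AL, 1.52 in LS and 1.26 in Ctrl mice. It encodes a subunit of the soluble guanylyl cyclase, which nitric oxide and not the peptides activates. Chosen after their values were seen, Prkg1, the cGMP-dependent kinase, had a log2FC of -0.51 (FDR = 0.000407), Pde3a, a phosphodiesterase that cGMP inhibits, -0.54 (FDR = 8.42e-05), and Pde9a, which hydrolyzes cGMP, 0.68 (FDR = 0.000434). At the lower threshold of 0.58, 1 of 23 was called higher and 3 lower in AL against Ctrl mice (7.81% of all were called). In AL against LS mice 1 was called higher and 5 lower (8.9% of all). Pde1c, another phosphodiesterase, was called lower in both, with a log2FC of -0.96 (FDR = 0.000401) and -0.97 (FDR = 0.00137). In LS against Ctrl mice 0 of 23 passed the FDR (0.0207% of all).

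Other enzymes of peptide processing and removal were tested against merged controls. Of 5 tested genes among 7 other proprotein convertases, 0 passed the FDR, where 36.2% of all tested genes did. Their log2FC ranged from -0.39 (Pcsk1) to 0.52 (Pcsk4), both with large errors (SE 0.384 and 0.311). Of 8 rows tested from a list of 10 genes for other ligands and peptide degradation, 1 passed (36.2% of all). It is the second of 2 rows named Ide, for the insulin-degrading enzyme, with a log2FC of -0.53 (FDR = 0.00413) against 0.01 in the first row (FDR = 0.958), and it was called lower in AL against LS mice (-0.82, FDR = 0.00104), where the first row had 0.29 (FDR = 0.359). Both rows can share reads, so these values are uncertain. Pcsk4 had a log2FC of 1.01 in AL against LS mice (FDR = 0.0757), at means of only 0.704 and 0.358 CPM.

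Transcription factors and co-factors that act on the promoters of both peptide genes gave 28 tested genes. Of these, 2 rose and 5 fell at an FDR under 0.05 against merged controls, where 36.2% of all tested genes passed. Of the 28, 0 were called (4.88% of all), and the median log2FC was -0.05. Nfatc4, a factor activated by calcineurin, had a log2FC of 0.57 (FDR = 0.00442), Myocd, a co-activator of SRF, -0.46 (FDR = 0.0361), Hand2 -0.44 (FDR = 0.0218) and Mef2a -0.43 (FDR = 0.000374). Among 22 genes tied to cardiomyocyte stress and the sarcomere, 6 rose and 1 fell at an FDR under 0.05 in the same comparison (36.2% of all), with a median log2FC of 0.37. Nmrk2, a nicotinamide riboside kinase, was called with a log2FC of 2.41 (SE 0.367, FDR = 8.80e-05) and 21.9 ± 16.6 CPM in AL mice (n = 9) against 3.50 ± 1.71 in Ctrl mice (n = 7). Mybpc2, the fast-type myosin-binding protein C, was called with 1.11 (FDR = 0.00128), and Mybphl with -1.10 (FDR = 0.0373) from under 1 CPM in every group.

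Around the gene pair on chromosome 4, 9 of 11 neighboring genes were tested, and 3 rose and 1 fell at an FDR under 0.05 against merged controls, where 36.2% of all tested genes passed. Draxin was the 1 called (log2FC 1.15, FDR = 0.0368), where 4.88% of all tested genes were. It had a mean of 0.265 CPM in AL mice and 0.107 in Ctrl mice, close to the floor of 3 counts (0.0479 to 0.381 CPM).

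The genes whose levels followed each peptide gene most closely were not the same. Over 20 mice, after removal of the run effect, log2 CPM of Nppa had its highest Pearson r with Eno1 (0.90), which encodes a glycolytic enolase, Ap1s1 (0.90), Ccdc12 (0.90), Syngr2 (0.90) and AI413582 (0.89). For Nppb they were Cox19 (0.90), Synpo2l (0.86), Nudt18 (0.86), Pdlim1 (0.85) and Tnfrsf12a (0.84), the receptor of the cytokine TWEAK. Nppb stood at rank 192 of 12220 genes for Nppa, and Nppa at rank 55 for Nppb (r = 0.75). Mme had an r of -0.76 with Nppa and -0.57 with Nppb. The 20 mice hold 3 groups that differ in these genes, so these values describe the pattern over groups as well as within them.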

How the data were processed

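The authors sequenced polyadenylated RNA of 20 heart apices with a stranded kit in 2 runs, and aligned paired-end reads to GRCm38 with STAR. They deposited estimated counts of 25308 genes from Salmon, without adjustment for the run. Ensembl was the stated annotation. Here 14.2% of the values were not whole and were rounded. Groups and replicate numbers came from the labels. The paper states 2 runs but does not list their mice. The split into runs used here follows the library names, which hold SCoeur for every first-run mouse and for none of the second run. Total counts follow the same split. The 10 genes, the gene lists and the tests were chosen with earlier results of these data known.

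Genes were filtered with filterByExpr (minimum count 10), which kept 14477, scaled by TMM and tested with glmQLFit and glmQLFTest of edgeR 4.0.16 in R 4.3.3, with group and run as terms over all 20 mice. Standard errors were derived from the F statistic. A count of 3 served as floor, 0.0479 to 0.381 CPM, which covers counting error only. Lengths and coordinates are those of GENCODE M21. Correlations used log2 CPM (prior count 2), and two-sided permutations (exact under 10 mice, otherwise 100000). Alternatives were RLE factors, no filter, DESeq2 1.42.0, ComBat-seq (sva 3.50.0), no run term, the first run alone, only the 2 groups, a replicate block, Xist as a covariate, and each mouse left out. All 10 genes are named, with up to 4 genes of each list that were called against merged controls or, failing these, passed the FDR, and the 5 genes most alike. Data were also simulated for AL against Ctrl mice (14477 genes), without a run effect. In them 100 genes were changed by an absolute log2FC of 1 and 100 by 2, all drawn from genes with higher counts. Of those changed by 1, 91% were recovered, and 0.532% of all calls were false. Smaller changes were not simulated. The measured data hold 2 runs and more genes that differ, so these shares need not hold for them.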

Additional observations from a re-analysis of the deposited data

Results flagged for a closer look

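Among 27 sets of values (9 tested genes in 3 groups), 3 held a mouse far from the others of its group by Dixon's criterion, which chance alone meets in about 1 of 20 sets. Npr2 stood at 61.9 CPM in AL8, with the next AL mouse at 48.7. Furin stood at 145 CPM in AL9, with the next at 75.6. Pcsk6 stood at 106 CPM in Ctrl3, with the next Ctrl mouse at 77.6. AL8 and AL9 belong to the second run, and AL9 also had the largest TMM factor of all mice (1.30).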

How the results depend on the processing

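Nppa kept its call and direction in AL against Ctrl mice in all 29 other settings. The number of members called in AL against Ctrl mice was 1 in the first run alone and 1 with the replicate block, against 3. In AL against LS mice it was 1 with no run term, in the first run alone, with only the 2 groups and with the block (Npr1 each time), against 0, and ranged from 0 to 1 as each mouse was left out (Pcsk6 without AL2, Npr1 without LS4). Against merged controls it was 0 with the block. Over all genes, ComBat-seq gave 648 calls in AL against LS mice (1288 otherwise), and LS against Ctrl mice gave 19 with DESeq2 and 6 with ComBat-seq (3 otherwise). The cause was not tested.

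Replicate numbers did not pair the mice: of 15 pairs with the same number, 4 had deviations correlated above 0.1 (-0.228 to 0.293). With the replicate block, 851, 1228, 3 and 539 genes were called in AL against Ctrl, AL against LS, LS against Ctrl and AL against merged controls (1130, 1288, 3 and 707 without).

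Signs turned for values whose 95% interval held 0. In AL against Ctrl mice Furin came to -0.047 with ComBat-seq, -0.23 in the first run alone and -0.36 with the block, Npr3 to 0.040 in the first run alone and 0.10 with the block, and Corin to 0.0011 with Xist as a covariate. In AL against LS mice Furin came to -0.060 with ComBat-seq, -0.077 in the first run alone, -0.087 with only the 2 groups and -0.22 with the block, Nppb to -0.034 with Xist and -0.46 with the block, and Npr3 to 0.014 with the block. Against merged controls Furin came to -0.0073 with ComBat-seq, -0.15 in the first run alone and -0.29 with the block, and Npr3 to 0.056 with the block. In LS against Ctrl mice Furin came to -0.12 with no run term, -0.15 in the first run alone and with only the 2 groups, and -0.14 with the block. There Mme came to 0.068 with ComBat-seq, 0.040 with no run term, 0.047 in the first run alone, 0.048 with only the 2 groups and 0.043 with the block. Npr3 came to 0.020 with ComBat-seq, 0.082 in the first run alone, 0.083 with only the 2 groups and 0.085 with the block, and Pcsk6 to 0.17 with no run term, 0.077 in the first run alone, 0.078 with only the 2 groups and 0.095 with the block. With each mouse left out, Furin ranged from -0.14 to 0.11 (AL against Ctrl), -0.047 to 0.087 (AL against LS), -0.11 to 0.092 (merged) and -0.10 to 0.10 (LS against Ctrl), and in LS against Ctrl mice Mme ranged from -0.15 to 0.024 and Npr3 from -0.21 to 0.069.

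RLE factors and no filter, added after seeing the data for the comparison of the runs, gave 154 to 175 genes that differed between the runs (215 otherwise). The second run was the shallower, with 2 AL mice, and held no LS mouse. P-values of the comparisons set the difference between groups against the spread between mice, which was estimated over all groups together.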
